A study of Mus musculus with 12 samples.

Results

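The postsynaptic density, the protein mesh under the membrane of an excitatory synapse, is held together by a small set of scaffold proteins, and the CpG sites of 9 genes that encode them are described here: Shank1, Shank2, Shank3, Dlg4, Dlgap1, Dlgap2, Dlgap3, Dlgap4 and Homer1. Sites were taken within each gene body or 2000 bp upstream of it (GENCODE vM21 basic annotation, mm10 build) where at least 9 of the 12 libraries had 10 or more reads. In all, 3030 of the 1697482 sites covered to that extent in the series belonged to these 9 of 53843 annotated genes. A site is 1 cytosine on 1 strand, and its methylation level is the percentage of its reads that were methylated. Of the 3030 sites, 1537 were promoter sites, 682 exon sites and 811 intron sites. Promoter here means 2000 bp upstream to 1000 bp downstream of any basic transcript start of the gene, and exon and intron sites are those of the gene body outside that window. All 9 genes lie on the plus strand.

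The tissue was brain, with hippocampus and cortex processed together, from 4 wild-type (Wt) and 8 Tg2576 (Tg) mice labelled as 11 months old. Tg2576 mice carry a transgene for human amyloid precursor protein with the Swedish mutation, driven by a prion promoter, and are used as a model of Alzheimer's disease. By the labels, 3 of the Wt mice were female and 1 was male, and 4 Tg mice were of each sex, with 1 library for each animal. The assay was RRBS (reduced representation bisulfite sequencing), which cuts DNA at CCGG and so reads mainly CpG-rich stretches, and bisulfite conversion tells methylated from unmethylated cytosines.

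In the postsynaptic density, Dlg4 encodes PSD-95, which binds glutamate receptors and channels at the membrane. Dlgap proteins (GKAP or SAPAP) bind PSD-95 and join it to Shank proteins, and Homer1 links Shank to metabotropic glutamate receptors and internal calcium stores. Homer1 also gives a short, activity-induced form that competes with the long form. In mammals, CpG-rich promoters are mostly free of methylation in brain whether or not a gene is highly expressed, whereas gene bodies are mostly methylated. RRBS measures neither RNA nor protein, so no marker gene of a brain cell type could be checked here, nor could the presence of the transgene. A tissue level averages over neurons and glia, so that a different share of a cell type and a different level within it cannot be told apart.

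Libraries differed in depth. Summed coverage was lowest in Tg female 4 (33619981) and highest in Tg female 1 (131446104), and the number of sites with 10 or more reads ran from 1380585 to 2652395. The library labelled Wt male had a mean X-chromosome level of 19.9%, near the 20.7% to 23.0% of the libraries labelled female and unlike the 5.50% to 5.67% of the Tg males. It had 0.0696 Y-chromosome sites per 1000 autosomal sites. Libraries labelled female had 0.0584 to 0.151 and Tg males 0.347 to 0.503. Results that rest on the library labelled Wt male are therefore also given without it. Deposited counts were more often even than odd: for coverage from 10 to under 60 reads, the count at member sites was even in 67.7% to 81.0% of values, depending on the library. A methylated count of 2 was found 2447 times at these sites and a count of 1 only 353 times. Intervals and binomial p-values below take each counted read as a draw of its own, and the number of calls is therefore also given with each count at a weight of 0.5.

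Promoter sites of the 9 genes were nearly free of methylation, with a mean level of 2.71% and 1429 of 1537 sites under 5%. Exon sites averaged 29.4% and intron sites 32.9%. Over all annotated genes the means were 3.62% for promoter, 41.7% for exon and 42.6% for intron sites. In that background a site took 1 class over all genes, promoter before exon before intron. A member site took the class of its own gene, so the classes are not fully alike. Of the member sites, 41 of 682 exon and 127 of 811 intron sites also lay in another gene or its 2000 bp upstream. Genes fell into a high and a low set for exons. Exon sites averaged 77.4% in Shank2, 83.6% in Dlg4, 89.4% in Dlgap2 and 73.6% in Dlgap4. In Shank1 they averaged 11.8%, in Dlgap3 12.7%, in Shank3 26.96% and in Dlgap1 31.7%, while Homer1 had no covered exon site outside its promoter window. Among 2772 protein-coding genes with at least 5 sites in each class, the exon mean was at percentile 13.9 for Shank1, 14.5 for Dlgap3, 22.2 for Shank3 and 25.2 for Dlgap1, against a median gene of 65.5%. The exon mean of Dlgap2 was at percentile 82.6.

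**Figure D1:**
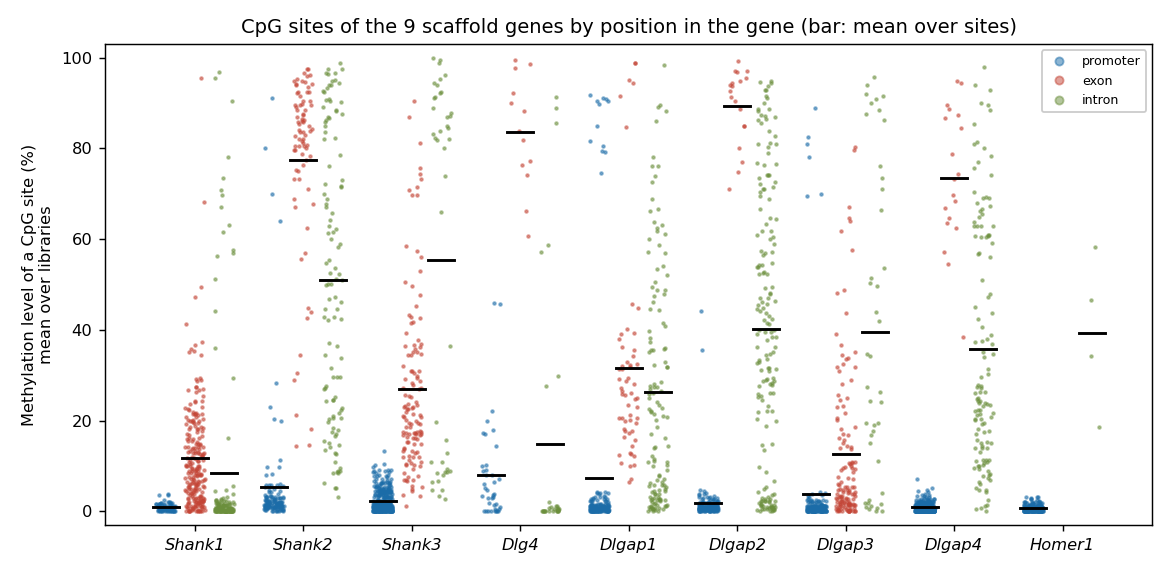
Methylation level in percent of each CpG site of the 9 genes (1 point per site, mean over libraries), split into promoter, exon and intron sites, with a black bar for the mean over sites. Promoter sites lie near 0 in every gene apart from small groups in Shank2, Dlg4, Dlgap1, Dlgap2 and Dlgap3, and exon sites lie low in Shank1 and Dlgap3 and high in Shank2, Dlg4, Dlgap2 and Dlgap4.

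Paralogs of one family fell on both sides. Shank genes hold a large coding exon just before the last one, which encodes the proline-rich part of the protein that binds Homer and cortactin. A stretch of 150 bases from each of the 3 Shank genes, the window with most measured sites in that exon of the gene, is shown because levels in them differed widely. They were read from the GRCm38.p6 genome, plus strand, with each CpG in capitals.
Shank1, chr7:44352584-44352733: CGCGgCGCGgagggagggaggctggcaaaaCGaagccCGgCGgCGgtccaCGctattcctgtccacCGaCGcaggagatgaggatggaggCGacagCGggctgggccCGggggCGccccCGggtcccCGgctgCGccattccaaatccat
Shank2, chr7:144410109-144410258: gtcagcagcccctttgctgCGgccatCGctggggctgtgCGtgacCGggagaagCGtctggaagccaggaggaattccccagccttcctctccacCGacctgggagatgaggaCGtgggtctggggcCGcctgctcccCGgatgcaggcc
Shank3, chr15:89548101-89548250: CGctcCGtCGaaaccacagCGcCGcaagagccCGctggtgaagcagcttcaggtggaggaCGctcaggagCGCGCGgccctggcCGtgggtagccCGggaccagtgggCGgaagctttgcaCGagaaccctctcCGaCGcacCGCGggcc
The Shank1 window held 18 CpGs, and its 30 sites averaged 8.25%. The Shank2 window held 9 CpGs, and its 16 sites averaged 82.4%, the lowest of them at 67.7%. The Shank3 window held 18 CpGs, and its 34 sites averaged 18.1%. The longest run of bases that the Shank1 and Shank2 windows shared was ggagatgagga (11 bases).

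Over the whole exon the order was the same in every animal. Exons are numbered here along each gene after overlapping exons of its basic transcripts are merged. Exon 25 of Shank2 (chr7:144409462-144411868, 51 sites) had a level of 81.4% in its lowest library, a median of 84.9% and 93.0% in its highest. Exon 21 of Shank3 (chr15:89547626-89549882, 92 sites) ranged from 17.1% to 29.2% with a median of 20.9%. Exon 24 of Shank1 (chr7:44351557-44354644, 139 sites) ranged from 7.97% to 14.2% with a median of 9.93%. The ranges of the 3 paralogs over 12 animals did not overlap. The exon held 4.65 CpGs per 100 bp in Shank2, 5.36 in Shank3 and 6.57 in Shank1. These exons were picked out after their levels were seen, so the difference between paralogs is a description without a test.

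The last exons of the Shank genes lay closer together. Sites of the last Shank1 exon averaged 10.8% (87 sites) and those of the last Shank3 exon 30.5% (25 sites). The 12 sites of the last Shank2 exon averaged 45.3%, with 33.7% in the lowest library and 77.1% in the highest. These sites all lie at chr7:144420564-144420657, in an exon of 3936 bp. The short exon 22 of Shank2 (11 sites) averaged 89.5%, and exon 19 of Shank3 (10 sites) averaged 63.9%.

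Dlgap genes, which encode the adaptors between PSD-95 and Shank, also differed widely. Windows of 150 bases chosen in the same way are shown for the last exon of Dlgap3, a low one, and exon 6 of Dlgap2, a high one.
Dlgap3, chr4:127236208-127236357: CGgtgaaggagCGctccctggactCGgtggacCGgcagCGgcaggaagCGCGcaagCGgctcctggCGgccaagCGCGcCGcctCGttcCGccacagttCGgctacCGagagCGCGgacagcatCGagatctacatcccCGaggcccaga
Dlgap2, chr8:14727378-14727527: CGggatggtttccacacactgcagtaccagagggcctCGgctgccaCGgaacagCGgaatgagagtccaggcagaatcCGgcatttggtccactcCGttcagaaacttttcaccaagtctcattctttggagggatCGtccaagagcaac
The Dlgap3 window held 20 CpGs, and its 39 sites averaged 1.29%. The Dlgap2 window held 7 CpGs, and its 8 sites averaged 92.0%. Over the whole last exon of Dlgap3 (chr4:127236150-127237022, 84 sites) the libraries ranged from 0.8292% to 4.45%. Exons 7 and 8 of the same gene were partly methylated, at 44.0% (12 sites) and 24.5% (37 sites). In Dlgap2, exon 6 ranged from 87.7% to 97.8% and exon 13 from 82.8% to 98.6% over the 12 libraries. The 52 covered sites of the last exon of Dlgap1 (chr17:70818025-70821413) all lie near its beginning, at chr17:70818059-70818227. They averaged 24.5% and varied widely between animals, from 11.8% in the library labelled Wt male to 42.7% in Tg female 1. Exon 16 of Dlgap1, by contrast, stayed between 81.5% and 100% in all 12 libraries (6 sites). Exon 4 of Dlgap4 averaged 68.8% (12 sites) and its exon 10 averaged 88.9% (6 sites).

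**Figure D2:**
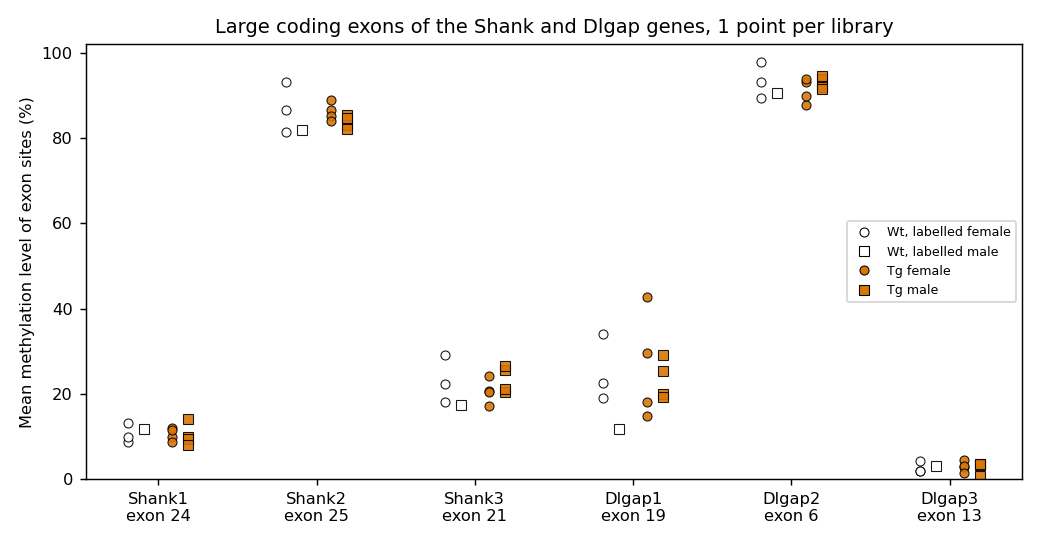
Mean methylation level in percent of the sites in 6 coding exons of the Shank and Dlgap genes, 1 point per library, with Wt open and Tg filled, circles for animals labelled female and squares for animals labelled male. Shank2 exon 25 lies above 81% and Shank1 exon 24 below 15% in every library, and Dlgap1 exon 19 has the widest spread of the 6.

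Levels were related to the local number of CpGs. Across the 682 exon sites the level and the number of CpGs within 100 bp either side had a Spearman's rho of -0.476, and across the 811 intron sites it was -0.625. Across sites of all genes, with the background classes described above, the values were -0.619 for exons and -0.483 for introns. Neighbouring sites share fragments and libraries, so these are descriptions. At 6 to 10 CpGs per window, exon sites of the 9 genes averaged 55.9% and those of all genes 64.5%. At 21 or more, they averaged 10.9% (169 sites, 4 genes) and 7.67%. The 22 member exon sites with 1 to 5 CpGs averaged 30.8%, so the order was not the same throughout.

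Starts were examined next, since several of these genes have more than 1. The first start of Shank1, Shank3, Dlgap1, Dlgap2, Dlgap3 and Dlgap4, and the first basic start of Homer1, lay in CpG-rich stretches whose sites averaged between 0.642% and 1.77%. The 250 bases before the RefSeq starts (GRCm38.p6, plus strand) of Homer1 and Shank3 are shown as examples, with each CpG in capitals.
Homer1, chr13:93303507-93303756: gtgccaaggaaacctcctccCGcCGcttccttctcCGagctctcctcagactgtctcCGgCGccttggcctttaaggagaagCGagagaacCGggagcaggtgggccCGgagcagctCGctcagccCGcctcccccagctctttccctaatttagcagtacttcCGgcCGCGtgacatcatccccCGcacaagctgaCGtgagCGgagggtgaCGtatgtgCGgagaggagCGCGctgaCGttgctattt
Shank3, chr15:89499358-89499607: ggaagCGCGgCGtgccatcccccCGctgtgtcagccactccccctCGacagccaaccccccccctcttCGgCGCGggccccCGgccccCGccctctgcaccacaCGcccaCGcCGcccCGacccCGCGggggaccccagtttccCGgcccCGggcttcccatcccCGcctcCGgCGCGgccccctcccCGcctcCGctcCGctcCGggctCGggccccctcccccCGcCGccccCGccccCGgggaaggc
The 40 sites of the Homer1 stretch averaged 0.493% and none was above 2.01%. The 18 sites of the Shank3 stretch averaged 0.867%. The Homer1 stretch held the letters TGACGT 3 times over both strands, a number reached by 47 of 32851 RefSeq promoters (0.143%) in their 250 upstream bases, and by no other member promoter in the table, which held promoters of 6 of the 9 genes. TGACGT begins the full cAMP response element TGACGTCA, which none of the member promoters held and which 1.79% of all promoters (300 bases each) did, both strands searched. The motif was picked out after the sequence was seen.

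Shank2 was organised the other way round. Its first annotated start (chr7:144001928) was poor in CpGs (0.699 per 100 bp), and its 4 covered sites averaged 76.3%. The starts 173.6 and 282.5 kb into the gene, which give shorter forms of the protein, averaged 2.85% (58 sites) and 3.19% (59 sites). In Shank3 the internal start at 24.1 kb was as rich in CpGs as the first (11.99 against 11.98 per 100 bp). It averaged 4.56% over 126 sites against 0.791% over 194 sites at the first start. Every library was higher at the internal start: its lowest value was 2.52% and the highest value at the first start was 1.19%. The 126 sites of that start were also counted for the antisense gene Gm15609.

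Internal starts of the Dlgap genes differed from one another. The start 547 kb into Dlgap1 averaged 85.4% (12 sites), from 71.0% to 94.2% over the libraries. The start 25.4 kb into Dlgap3 averaged 78.3% (6 sites, 11 libraries). In Dlgap4 the internal start at 107.3 kb averaged 0.633% (158 sites) and the first start 1.07% (166 sites). All 324 promoter sites of Dlgap4 were also counted for a neighbouring gene (Gm14169 or 4930405A21Rik). Dlg4, the PSD-95 gene, had few covered sites at its starts: the first averaged 27.9% over 2 sites and the one at 10.8 kb averaged 4.64% over 27 sites. Of the 30 member promoter sites above 20%, 12 belonged to this start of Dlgap1, 6 to that of Dlgap3 and 4 to the first start of Shank2.

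**Figure D3:**
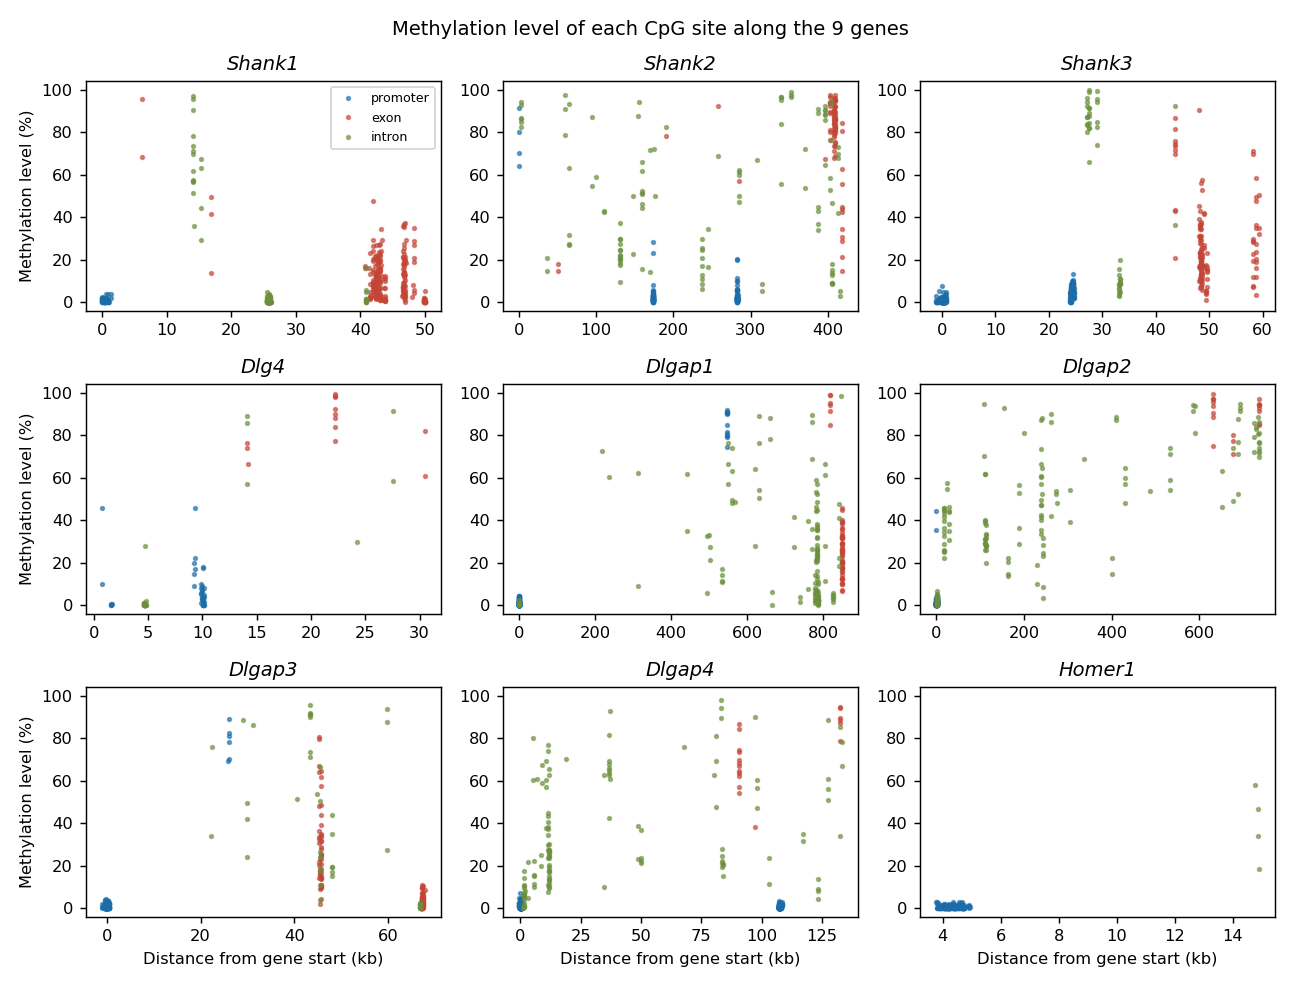
Methylation level in percent of each CpG site (mean over libraries) against its distance in kb from the gene start, 1 panel per gene, coloured by promoter, exon and intron. Low groups of promoter sites stand at the starts, and in Shank1 a dense group of intron sites near 26 kb is as low as the promoter.

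Away from the starts, 53 runs of at least 5 sites, with neighbours at most 1000 bp apart, held no promoter site, and 6 of them, in 4 genes, averaged under 5%. The one with most sites lay in an intron of Shank1 (chr7:44335756-44336440) and held 117 sites with a mean of 0.724%. Its libraries ranged from 0.315% to 1.28%. Part of it is shown, plus strand of GRCm38.p6, because it was as low and as rich in CpGs as a promoter although no basic transcript starts there.
Shank1 intron, chr7:44335969-44336118: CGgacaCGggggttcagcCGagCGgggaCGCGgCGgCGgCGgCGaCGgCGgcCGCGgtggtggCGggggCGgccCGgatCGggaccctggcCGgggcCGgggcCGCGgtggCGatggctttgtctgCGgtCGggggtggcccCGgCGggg
This window held 27 CpGs, and its 48 sites averaged 0.733%. The full GENCODE vM21 annotation places the start of a non-coding Shank1 transcript (Shank1-205) inside the run, at chr7:44336016. In Dlgap1 a run of 19 sites at 786.5 kb averaged 3.31% and spanned the start of the antisense transcript 5031415H12Rik. A run of 24 sites in a Dlg4 intron averaged 1.51%, with the nearest annotated start 2165 bases away. The other 3 were the end of the last Shank1 exon (23 sites, 0.740%), the end of Dlgap3 with its last exon (94 sites, 2.75%) and 6 intron sites of Dlgap1 (3.73%). For those 3, no transcript start lay within 2 kb. Of the 53 runs, 28 averaged 20% to 80% and 12 over 80%. In introns of Shank3, 18 sites at 27.1 to 27.6 kb averaged 87.6%, and 17 sites at 33.1 to 33.3 kb averaged 8.85%.

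As a description of likeness, each member with at least 5 sites in each class was set beside the protein-coding gene nearest to it in the 3 class means, among 2772 genes over the 12 libraries. Shank1 lay nearest to Wasf2 (distance 0.261 points), Shank2 to Ror2 (1.68), Dlgap2 to Sorcs2 (1.02), Dlgap4 to Adam1a (0.692), Dlgap3 to Bcan (2.66), Dlg4 to Arhgap4 (2.73), Shank3 to AI661453 (2.93) and Dlgap1 to Wipf3 (2.98). No Shank or Dlgap paralog was the nearest gene of another member.

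Genotype was then compared, site by site, at the 2942 member sites with 10 or more reads in 3 or more Wt and 6 or more Tg libraries. A binomial model with sex as covariate was fitted on all 1640810 such sites of the series. Sex was taken from the labels, so the library labelled Wt male was coded male. With adjustment by the Benjamini-Hochberg method, a site was called at an adjusted p under 0.1 and a difference of at least 10 points. Only the p-value took sex into account. The difference and its direction came from the summed reads of each genotype, without adjustment for sex. The binomial model called 161 member sites (5.47%), 100 higher and 61 lower in Tg, against a background of 4.11% over all sites (2.23% called higher in Tg) and 3.79% over autosomal sites. All 9 genes are autosomal. By class the shares were close to those of all genes or below: 7 of 1527 promoter sites (0.458%, background 1.28%), 64 of 654 exon sites (9.79%, background 9.72%) and 90 of 761 intron sites (11.8%, background 11.7%). Here and below, a background site took its class over all genes, promoter first, and a member site that of its own gene. With each count at a weight of 0.5, 10 member sites were called in place of 161, and 0.341% of all sites in place of 4.11%. The direction rested on single animals: without the library labelled Wt male, 132 sites were called and 54 of them were higher in Tg, and without Wt female 1, 211 were called and 162 were higher. Without Wt female 3, 85 of 169 called sites were higher in Tg, and among the 7 libraries labelled female 88 of 191 were. That last fit is not a separate check from the fit without the library labelled Wt male. With no Wt male left, the sex term leaves the binomial test to the same 7 libraries. Each had 718 member sites at an unadjusted p under 0.05 by the likelihood-ratio test. They differ only in whether the reads of Tg males enter the difference.

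No member site was called once animals of a group were allowed to differ by more than counting error (overdispersion model, F test, background 0.0% over all sites). The smallest adjusted p among member sites was 0.505. For sex within Tg this model also called none of 1607098 sites, X-chromosome sites included. Mean X-chromosome levels there were 21.4% to 21.7% in females and 5.50% to 5.67% in males. The lack of a call is thus no evidence that a site was equal in both genotypes. At an unadjusted p under 0.05 this model had 233 member sites (7.92%, background 9.5%). They were 140 promoter sites (background 10.3%), 45 exon sites (background 8.08%) and 48 intron sites (background 7.28%). Of the 161 sites called by the binomial model, 153 had a dispersion above 1, where 1 is what counting error alone gives. Wt and Tg ranges did not overlap at 14 member sites (0.476%, background 0.219%). Of the 107 called sites with a tested cytosine on the opposite strand of the same CpG, 65 differed in the same direction there and 18 by at least 10 points.

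By gene, binomial calls were 30 of 289 tested sites in Shank2, 30 of 340 in Dlgap1, 27 of 320 in Dlgap2, 24 of 484 in Shank3, 23 of 459 in Dlgap4, 13 of 330 in Dlgap3, 8 of 434 in Shank1, 5 of 78 in Dlg4 and 1 of 208 in Homer1. The shares ran from 0.481% in Homer1 to 10.4% in Shank2, against 4.11% over all sites. The mix of classes differed: 204 of the 208 Homer1 sites were promoter sites (background 1.28%), and 121 of the 289 Shank2 sites were. In the exons of Dlgap1, 16 of 58 tested sites were called (27.6%, background 9.72% for exon sites). Of these 16, 15 were higher in Tg, against 36580 of 67362 called sites of all classes over the series. Most of the 58, 52 sites, lie in 1 stretch, chr17:70818059-70818227. Neighbouring sites share fragments, so calls among them are not separate observations. The level over the 26 sites covered in all libraries was 35.1%, 21.3%, 17.3% and 9.72% in the Wt females and, last, the library labelled Wt male. In Tg it was 41.7%, 13.1%, 30.3% and 18.1% in the females and 16.5%, 22.8%, 29.0% and 24.1% in the males. The groups overlapped over most of their range, and the Wt mean of 20.9% ± 10.6 (SD, n = 4) against the Tg mean of 24.4% ± 9.14 (SD, n = 8) gave an exact permutation p of 0.564. Without the library labelled Wt male the difference was -0.12 points.

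None of the 26 member regions (promoter, exon or intron of a gene, reads summed) was called by either model, against 2.89% of 37694 regions for the binomial model and 0.0% for the overdispersion model. The smallest adjusted p of the overdispersion model was 0.950, for the Dlgap1 promoter, and no member region had an unadjusted p under 0.05 against 5.15% of all regions. Over the 130 sites of the Dlgap1 promoter covered in all libraries, the Wt levels were 0.714%, 0.667%, 0.482% and 0.765% and the Tg levels ran from 0.535% to 1.99%, with a median of 1.15%. In all, 7 of the 8 Tg animals were higher than all 4 Wt animals. The means were 0.657% ± 0.123 (SD, n = 4) and 1.16% ± 0.419 (SD, n = 8), a difference of 0.505 points with a two-sided exact permutation p of 0.0384. It was the 1 region of 23 with such a p under 0.05, it was not adjusted for the 23 regions, and at a minimum of 20 reads the p was 0.323. Without any 1 of the 4 Wt libraries the p was 0.0667 to 0.103, and without Tg female 1, Tg male 1 or Tg male 3 it was 0.0545 to 0.0576.

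Differences in the other regions had an exact permutation p above 0.05 with all libraries, and some passed it under another choice of libraries or weights. In the exons of the large Shank genes, Shank1 had 11.98% ± 1.56 in Wt and 11.4% ± 1.67 in Tg, Shank2 68.5% ± 6.26 and 69.1% ± 7.39, and Shank3 24.6% ± 5.18 and 25.3% ± 4.50 (SD, n = 4 and 8). Homer1 promoter sites had 0.498% ± 0.0178 in Wt and 0.608% ± 0.377 in Tg. Introns of Dlgap4 had 26.4% ± 6.90 and 27.9% ± 1.92. Wt female 1 alone, at 36.2%, lay above all Tg animals there, and without it the difference of 4.80 points had an exact permutation p of 0.00606. Promoter sites of Dlgap3 had 0.490% ± 0.112 and 0.930% ± 0.482, with an exact permutation p of 0.0909, which was 0.0273 without Tg female 2. Introns of Dlgap2 had 20.4% ± 4.24 and 22.1% ± 2.19, and without Wt female 1 the difference of 3.63 points had an exact permutation p of 0.0242. Introns of Dlg4 had 2.82% ± 0.416 and 2.77% ± 0.540, but the read-weighted difference over all 30 tested sites was -3.90 points with an exact permutation p of 0.0283. Exons of Dlgap2, over 8 sites, had 94.3% ± 2.31 and 94.6% ± 2.02, and among the 7 libraries labelled female the difference had the opposite sign, -2.05 points, with an exact permutation p of 0.0286, the smallest that 35 splits allow.

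**Figure D4:**
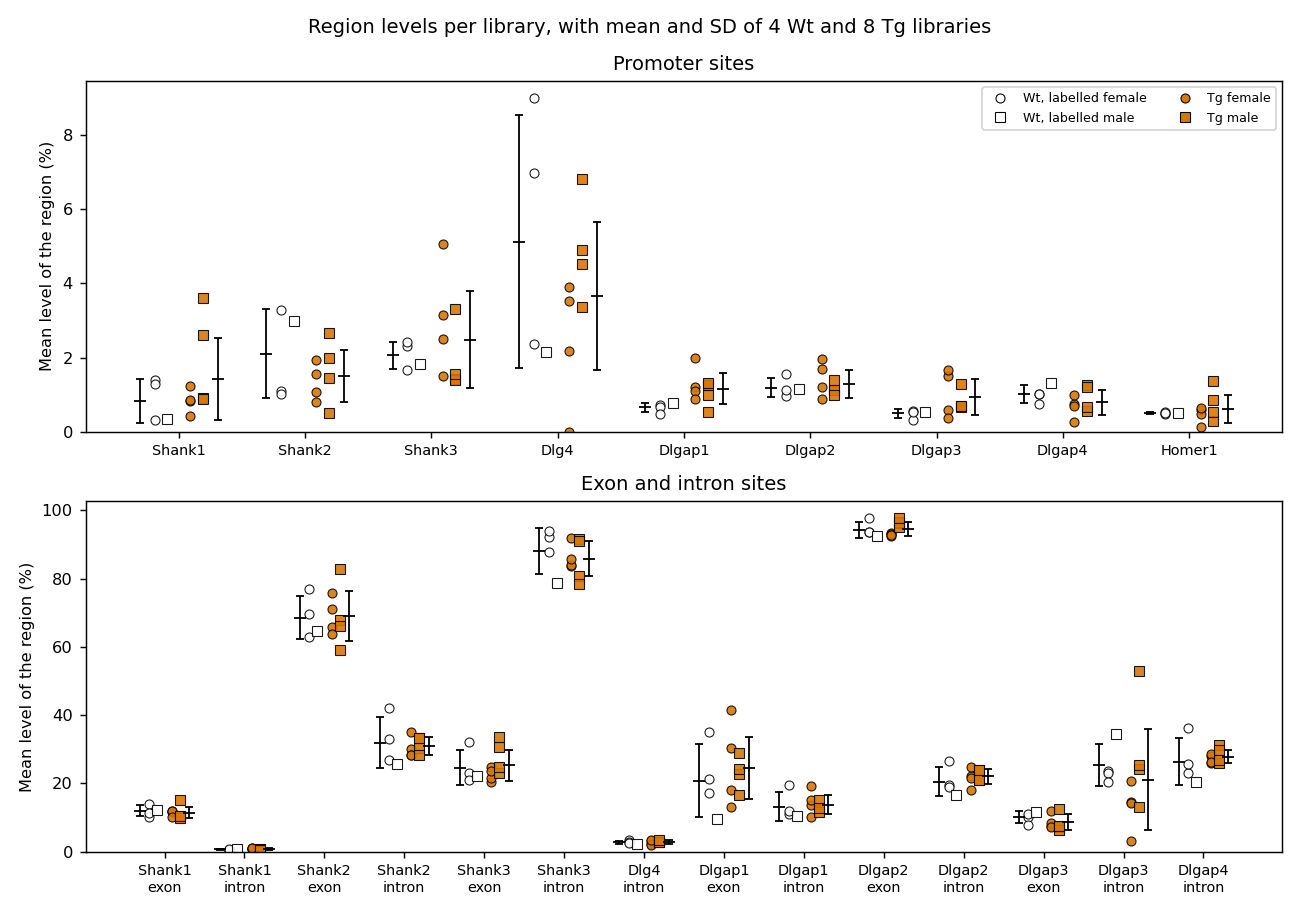
Mean methylation level in percent of each region (sites covered in all 12 libraries), 1 point per library, with the mean and SD of 4 Wt (open) and 8 Tg (filled) libraries beside the points, promoter sites above and exon and intron sites below on separate linear axes. Wt and Tg overlap in all regions, and the Dlgap3 intron, which rests on 3 sites, has the widest spread.

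Single sites were named as those with the smallest overdispersion p among the sites called by the binomial model, 1 within any 1000 bp. The 10 had unadjusted overdispersion p-values from 0.00112 to 0.0111 and adjusted ones from 0.505 to 0.512, so none was called by that model. In 9 of the 10 the library labelled Wt male was the Wt library farthest from the Tg animals, and 6 of the 10 were called in each fit without 1 library. The following 6 are shown, with the measured CpG in capitals in 42 bases of the plus strand of GRCm38.p6, because Wt and Tg ranges did not overlap, as at the first 5, or because all Wt animals were at 0, as at the last. At 3 of the 6 the level was lower in Tg and at 3 it was higher.
Dlgap4, chr2:156613220-156613261: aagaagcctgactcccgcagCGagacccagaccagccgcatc
Shank2, chr7:144283896-144283937: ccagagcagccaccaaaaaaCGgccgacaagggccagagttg
Dlgap3, chr4:127214719-127214760: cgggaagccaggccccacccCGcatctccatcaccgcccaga
Dlgap4, chr2:156615254-156615295: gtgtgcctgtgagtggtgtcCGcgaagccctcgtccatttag
Dlgap2, chr8:14824240-14824281: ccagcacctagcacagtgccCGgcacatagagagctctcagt
Dlgap4, chr2:156619280-156619321: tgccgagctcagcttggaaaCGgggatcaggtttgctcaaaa

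The first Dlgap4 site lies at -464 bp from the first start, on the minus strand. Its level was 13.5% in Wt female 1, 8.70% for Wt female 3, and 23.1% for the library labelled Wt male, with 23 to 37 reads each, and the Wilson 95% interval of the last was 11.0% to 42.1%. It was at 0 in the 6 Tg libraries that covered it, 0 of 172 reads, and 3 reads of that total would be 1.74%, the upper limit. The Shank2 site, at -523 bp from the nearest start of that gene, had 4.55%, 5% and 21.3% in the same 3 Wt libraries. It was not called in every fit without 1 library. It was at 0 of 173 reads in 7 Tg libraries, which allows up to 1.73%, yet its partner on the opposite strand was 5.78 points higher in Tg.

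The Dlgap3 site, in coding exon 8, had the largest difference of all called member sites, -37.2 points. Its Wt levels were 40%, 38.5% and 50%, and its Tg levels were 14.3%, 9.52% and 4 times 0, with 10 to 28 reads per library. On the opposite strand the difference was -0.408 points. The second Dlgap4 site, in an intron 1569 bp from the start, had 5.48% to 10.5% in the 4 Wt libraries and 13.5% to 33.3% in the 8 Tg libraries. It was also counted for Gm14169 and Gm14174, and it was not called in every fit without 1 library. On the opposite strand the difference was -8.19 points. The Dlgap2 site, in an intron, had 66.7% to 79.3% in the 4 Wt libraries and 85.0% to 100% in 6 Tg libraries, and it was called in each fit without 1 library.

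The third Dlgap4 site, in an intron 5595 bp from the start, was at 0 in all 4 Wt libraries, 0 of 74 reads, which allows up to 4.05%. Its Tg levels ran from 0 to 40.0%, so that 2 of the 7 Tg animals were at 0 as well. Intervals and limits cover counting error only, and a weight below 1 for each read would widen them.

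**Figure D5:**
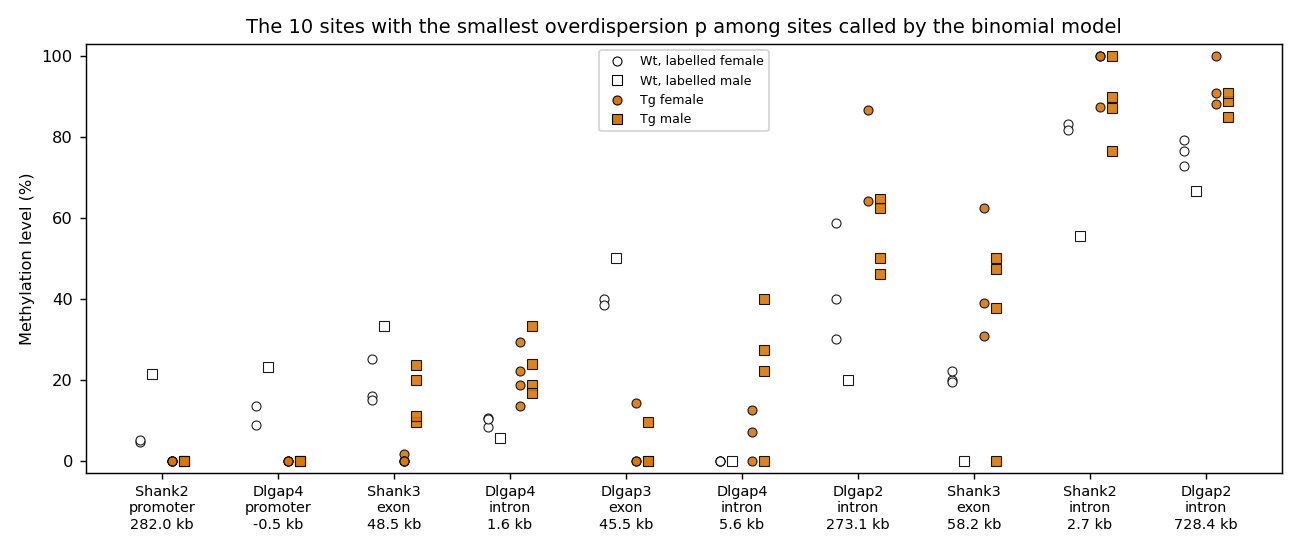
Methylation level in percent at the 10 named sites, 1 point per library, labelled by gene, position class and distance from the gene start, with Wt open, Tg filled, circles for animals labelled female and squares for animals labelled male. The square of the library labelled Wt male lies farthest from Tg at 9 of the sites.

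Other proteins of the postsynaptic density were taken as a list of 31 genes, among them the Dlg1 to Dlg3 paralogs of PSD-95, Homer2 and Homer3, neuroligins and CaMKII. At 5722 tested sites the binomial model called 321 (5.61%, background 4.11%), 126 higher and 195 lower in Tg. The list holds 4 X-linked genes (Dlg3, Nlgn3, Iqsec2 and Cnksr2), and the 2 kinds of gene differed. In the 4 X-linked genes 123 of 444 sites were called, 121 of them lower in Tg, and without the library labelled Wt male 43 were called, 40 of them lower. Over the series 67362 of 1640810 sites were called (4.11%), and 61107 of the 1613536 autosomal ones (3.79%). Sites of the X chromosome were thus called more often in the series as a whole, not only in these genes. The share over X-chromosome sites alone was not computed. All 4 Wt libraries had X-chromosome levels like those of the females, whereas 4 of the 8 Tg libraries had male ones. The difference used for a call took the reads of all 8 Tg libraries, so on the X chromosome it mixes sex with genotype. Values of these 4 genes in the libraries labelled female alone are not given here. In the 27 autosomal genes 198 of 5278 sites were called (3.75%, background 3.79% over autosomal sites), 124 higher and 74 lower in Tg, and 202 without the library labelled Wt male (116 higher). The overdispersion model called none of the 5722 sites, with 605 (10.6%, background 9.5%) at an unadjusted p under 0.05. Of 74 regions the binomial model called 3 (background 2.89%) and the overdispersion model 0. Of the 3, 2 were X-linked and lower in Tg, and 1 was among the 67 autosomal regions (background 2.5%) and higher in Tg, where 2 were called without the library labelled Wt male. The X-linked genes were set apart after the values were seen.

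Sex was compared within Tg, where the labels and the X chromosome were in accord. Of the 3030 member sites, 2801 had 10 or more reads in at least 3 Tg females and 3 Tg males, and the binomial model called 167 of them (5.96%, background 4.75% over autosomal sites), 85 of them higher in males. By class these were 12 of 1456 promoter, 66 of 625 exon and 89 of 720 intron sites. No background by class was computed for sex, so the 2 shares are not matched for class. The overdispersion model called none (background 0.0%), and 120 sites (4.28%, background 4.99%) had an unadjusted p under 0.05. The 8 exon sites of Dlgap2 covered in all 12 libraries, of 19, were at 93.3%, 93.1%, 92.3% and 92.9% in the females and 96.2%, 96.5%, 95.0% and 97.8% in the males, without overlap. The difference of 3.47 points had an exact permutation p of 0.0286, the smallest that 70 splits allow, and was the only one of 23 regions to reach it, with no adjustment.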

How the data were processed

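Brain DNA (hippocampus and cortex together) of 12 mice was profiled by RRBS with paired-end reads. The authors aligned reads to mm10 with Bismark and deposited, for each library, a table of cytosine positions with coverage and the counts of methylated and unmethylated reads, with at least 10 reads a site. The submitters' processing notes also name methylKit, and versions are not given in the sources used here. Counts were used as deposited, with no normalization. In every library even counts outnumbered odd ones, and the cause was not tested. Left out were 11 positions that a file listed repeatedly. Libraries were grouped by their labels and each was taken as 1 animal.

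Sites and regions were fitted over the whole table in Python 3.11.15 (numpy 2.4.6, scipy 1.17.1, pandas 2.3.3): a binomial logistic model with a likelihood-ratio test and labelled sex as covariate, and the same model with a dispersion per site of at least 1 and an F test. Adjustment followed Benjamini and Hochberg over all sites or regions, with calls at an adjusted p under 0.1 and 10 points. The 10 points and the direction came from the summed reads of each group, without adjustment for sex. Regions needed 3 tested sites. limma 3.58.1 (R 4.3.3) on logit levels, pseudocount 1, was an alternative. Both models were tested on simulated data. Region means used sites covered in all 12 libraries and two-sided exact permutation tests. Single sites were named by the smallest overdispersion p among binomial calls, 1 within 1000 bp, up to 10. Alternatives were other read minimums, site sets, difference thresholds, covariates, strands and promoter widths, and leaving out libraries; the weight of 0.5 and the split of the longer gene list into autosomal and X-linked genes were added after seeing the data. Wilson intervals are at 95%. Members and lists were chosen with earlier results of these data known. Promoter sequences came from RefSeq (GRCm38.p6), with 10 promoters of 6 members matched.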

Additional observations from a re-analysis of the deposited data

Results flagged for a closer look

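For each of the 23 regions, the 4 Wt and the 8 Tg animals were each examined as a group, 46 groups in all. In 4 of them 1 library stood apart from the others by Dixon's test at 95%. Chance alone picks out about 1 group in 20, or 2.3 of 46. Exon sites of Shank1 were at 15.1% in Tg male 3, and the other Tg animals were at 10.02% to 11.8%. Intron sites of Dlgap1 were at 19.6% in Wt female 1 and at 10.4% to 11.8% in the other Wt animals. Promoter sites of Dlgap3 were at 0.324% in Wt female 1 and at 0.528% to 0.568% in the other Wt animals. Intron sites of Dlgap3, of which only 3 were covered in all libraries, were at 53.0% in Tg male 3 and at 3.03% to 25.5% in the other Tg animals.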

How the results depend on the processing

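The number of member sites called for genotype by the binomial model, 161, was 39 among sites covered in all 12 libraries, 52 at a minimum of 20 reads, 11 at a difference of 25 points, 101 with both strands of a CpG summed and 10 with each count at a weight of 0.5. Over all sites of the series the shares called were, in the same order, 1.72%, 1.58%, 0.419%, 4.83% and 0.341%, against 4.11% in the main fit. The member count ranged from 132 to 211 without 1 library each, with 3.43% to 5.04% called over all sites. The smaller sets hold fewer sites to test (1734 and 1899 in place of 2942), and for the others the cause was not tested. For sex within Tg the number, 176 of 2842 sites tested in the member genes when sites covered in fewer than 9 of the 12 libraries were kept, was 66 at 20 reads and 87 with all 8 Tg libraries, and 171 to 203 without 1 library. The overdispersion model called no member site or region under any alternative run, and limma called 0 of 26 regions. Without 1 library the binomial model called 0 to 1 regions, the 1 without Wt female 1 or Wt female 3. The count of regions with an exact permutation p under 0.05, 1 in all, was 0 at 20 reads and 0 to 2 without 1 library.

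Of 360 alternative values of the 23 region differences, 35 had the opposite sign, in 10 regions without 1 library. With the 7 libraries labelled female the difference was -0.157 points for the Shank1 promoter, -0.712 for Shank2 exons, -2.78 for Shank3 exons, -2.05 for Dlgap2 exons, -0.0262 for Dlgap2 introns, -1.07 for Dlgap4 introns and -0.0442 for the Homer1 promoter. At 20 reads it was -0.844 for Shank1 introns, 2.81 for Shank2 introns, -0.0456 for Dlgap2 introns and -0.105 for the Homer1 promoter. Read-weighted, it was -0.119 for Shank1 introns, 2.56 for Shank2 introns and 1.18 for Shank3 introns. Without 1 library each, it ran from -1.11 to 0.125 for Shank1 exons, -0.00839 to 0.115 for Shank1 introns, -1.43 to 3.31 for Shank2 exons, -3.15 to 2.29 for Shank2 introns, -0.463 to 3.29 for Shank3 exons, -0.203 to 0.119 for Dlg4 introns, -0.12 to 8.34 for Dlgap1 exons, -0.377 to 2.68 for Dlgap1 introns, -0.32 to 1.43 for Dlgap2 exons and -0.425 to 4.80 for Dlgap4 introns. The cause was not tested. No paired analysis was run, because Wt and Tg libraries came from different animals and the labels name no pairs.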
